A study of Mus musculus with 9 samples.

Results

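The genes described here are 10 genes used to recognise endothelial cells and their precursors: Pecam1, Tek, Tie1, Kdr, Flt1, Cdh5, Gata2, Sox18, Lmo2 and Cd34. They were taken by name from the 20287 gene IDs listed in at least 1 of 9 RNA-seq libraries, and all 10 were found. The libraries came from E14, an embryonic stem cell line from mouse strain 129, as wild type (WT) or Hbxip-/- (knockout, KO) cells. Hbxip, now named Lamtor5, encodes a subunit of Ragulator, the lysosomal complex through which amino acids act on mTORC1. Both genotypes were sampled in pluripotent culture, 96 h after withdrawal of LIF, a cytokine that holds the undifferentiated state, and as embryoid bodies, which are differentiating cell aggregates. Each culture held 1 WT library and 2 KO libraries, with no other allele or agent named in the labels. Nothing in the labels says whether the KO libraries came from separate clones or cultures, so a p-value here reflects library spread, which may be technical. The age of the embryoid bodies and the part of Hbxip that was removed are not given in the sources used here.

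Endothelial cells line blood vessels and arise from mesoderm under the action of VEGF ligands, which bind the receptors Kdr and Flt1. The angiopoietin receptor Tek and its relative Tie1 act later, as vessels mature, and the adhesion molecules Cdh5 and Pecam1 hold neighbouring endothelial cells together. Gata2, Sox18 and the adaptor Lmo2 are nuclear regulators of the blood and vessel lineages. Several of these genes are also read outside vessels: Pecam1 is a known surface protein of undifferentiated mouse embryonic stem cells, Gata2 is also a trophoblast regulator, and Cd34 also marks blood progenitors.

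Promoters are shown for the members that had a promoter entry, apart from Tie1. They are given because ETS factors such as Etv2, Fli1 and Erg, which bind around a GGAA core, are known to control many endothelial genes. Tek and Cd34 changed in opposite directions in the 2 genotypes, Flt1 and Gata2 were lower in KO in every culture, and Kdr was higher in KO in every culture. Each line gives the 250 bases before an annotated start, 5′ to 3′ on the gene's own strand, from RefSeq on GRCm38.p6, with capitals marking GGAA or its reverse complement TTCC. Of the 10 members, 6 had an entry in this table, and Pecam1, Cdh5, Sox18 and Lmo2 had none.
Tek, chr4:94739039-94739288, plus strand: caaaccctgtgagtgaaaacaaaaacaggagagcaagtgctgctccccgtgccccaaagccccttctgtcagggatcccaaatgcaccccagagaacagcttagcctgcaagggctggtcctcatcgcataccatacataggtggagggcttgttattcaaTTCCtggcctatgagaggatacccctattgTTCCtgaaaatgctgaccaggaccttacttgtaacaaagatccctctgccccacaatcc
Cd34, chr1:194938571-194938820, plus strand: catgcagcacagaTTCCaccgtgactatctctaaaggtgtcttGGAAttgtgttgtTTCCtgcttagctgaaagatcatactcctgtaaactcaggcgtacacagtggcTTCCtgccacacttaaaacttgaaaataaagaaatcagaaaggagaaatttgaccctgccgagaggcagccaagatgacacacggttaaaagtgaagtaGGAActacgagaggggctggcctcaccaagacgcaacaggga
Flt1, chr5:147726012-147726261, minus strand: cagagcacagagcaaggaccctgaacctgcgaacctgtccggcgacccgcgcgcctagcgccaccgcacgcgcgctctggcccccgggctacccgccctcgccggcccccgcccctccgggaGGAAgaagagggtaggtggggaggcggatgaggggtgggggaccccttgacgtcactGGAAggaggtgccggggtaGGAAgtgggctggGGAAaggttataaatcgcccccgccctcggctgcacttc
Gata2, first start, chr6:88193641-88193890, plus strand: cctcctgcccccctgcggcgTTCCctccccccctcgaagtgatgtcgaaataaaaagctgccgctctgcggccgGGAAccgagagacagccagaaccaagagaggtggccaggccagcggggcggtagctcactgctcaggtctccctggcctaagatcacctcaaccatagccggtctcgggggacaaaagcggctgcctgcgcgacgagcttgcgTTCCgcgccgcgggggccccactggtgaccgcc
Gata2, second start, chr6:88198414-88198663, plus strand: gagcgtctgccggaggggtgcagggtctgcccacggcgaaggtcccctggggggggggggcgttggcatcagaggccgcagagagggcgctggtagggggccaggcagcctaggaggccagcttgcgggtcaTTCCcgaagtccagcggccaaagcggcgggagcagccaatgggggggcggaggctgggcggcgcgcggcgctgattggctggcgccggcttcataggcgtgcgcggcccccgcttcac
Kdr, chr5:75978456-75978705, minus strand: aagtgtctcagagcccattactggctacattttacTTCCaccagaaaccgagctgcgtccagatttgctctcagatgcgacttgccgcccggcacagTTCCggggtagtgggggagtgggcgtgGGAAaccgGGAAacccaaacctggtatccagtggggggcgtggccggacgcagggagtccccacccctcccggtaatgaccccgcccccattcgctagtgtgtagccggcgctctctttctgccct
GGAA was found on either strand 2 times in the Tek window, 5 times in Cd34, 4 times in Flt1, 4 times in Kdr, and 3 times and 1 time in the windows of Gata2. It is a common sequence: of 32851 RefSeq promoter windows of the same length, 93.4% held it. The GATA core GATAA, searched on both strands, was in none of these 6 windows, and 22.6% of all windows held it. These counts describe the letters of the windows only, and binding was not measured.

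Read totals were alike, with 10147277 to 10863845 rounded counts per library. At these totals 3 counts, about the 95% upper limit for an observed 0 from counting error, are worth 0.276 to 0.296 CPM. Hbxip itself was checked first. Its level was 40.7 FPKM (fragments scaled to gene length and library size) in the WT library of pluripotent culture against 31.0 and 29.1 in KO, 38.5 against 16.2 and 15.5 after LIF withdrawal, and 41.8 against 23.0 and 18.3 in embryoid bodies. Reads of the gene thus remained in every KO library, and since gene totals can include reads outside a deleted part, they neither check the labels nor contradict them. In pluripotent culture the difference missed the threshold (log2 fold change −0.31 ± 0.15 SE, adjusted p = 0.0971). Hbxip was called lower in KO after LIF withdrawal (−1.22 ± 0.16, adjusted p = 7.49e-05) and in embryoid bodies (−1.02 ± 0.15, adjusted p = 0.000252). Throughout, a gene was called changed where its p from edgeR's quasi-likelihood test, Benjamini-Hochberg adjusted over the 13990 tested genes, was below 0.05. The error came from the spread within the KO pairs, and the single WT library of each culture was taken to vary as much.

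The label of the set was met only in part. Cdh5 and Tie1, which are largely restricted to endothelial cells, were low and rested on few counts. Cdh5 was between 0.05 and 0.35 FPKM in the 9 libraries (2 to 15 counts), and Tie1 was between 0 and 0.28 (0 to 11 counts). Pecam1 was the most abundant member, with a mean of 28.4 FPKM over the 9 libraries, followed by Cd34 at 4.5 and Tek at 2.89. The other 7 members had means under 1 FPKM, in the order Sox18 0.928, Gata2 0.863, Lmo2 0.644, Kdr 0.643, Flt1 0.457, Cdh5 0.182 and Tie1 0.133. Each neighbouring pair in this order overlapped in its range over libraries, apart from Pecam1 (lowest value 10.2 FPKM) and Cd34 (highest value 9.72). Pecam1 alone made up between 46.1% and 83.6% of the summed FPKM of the 10 genes in a library. The set is therefore described gene by gene, and its name is used for the list, not for a cell type. In bulk RNA, fewer cells of a type and less RNA per cell cannot be told apart.

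**Figure D1:**
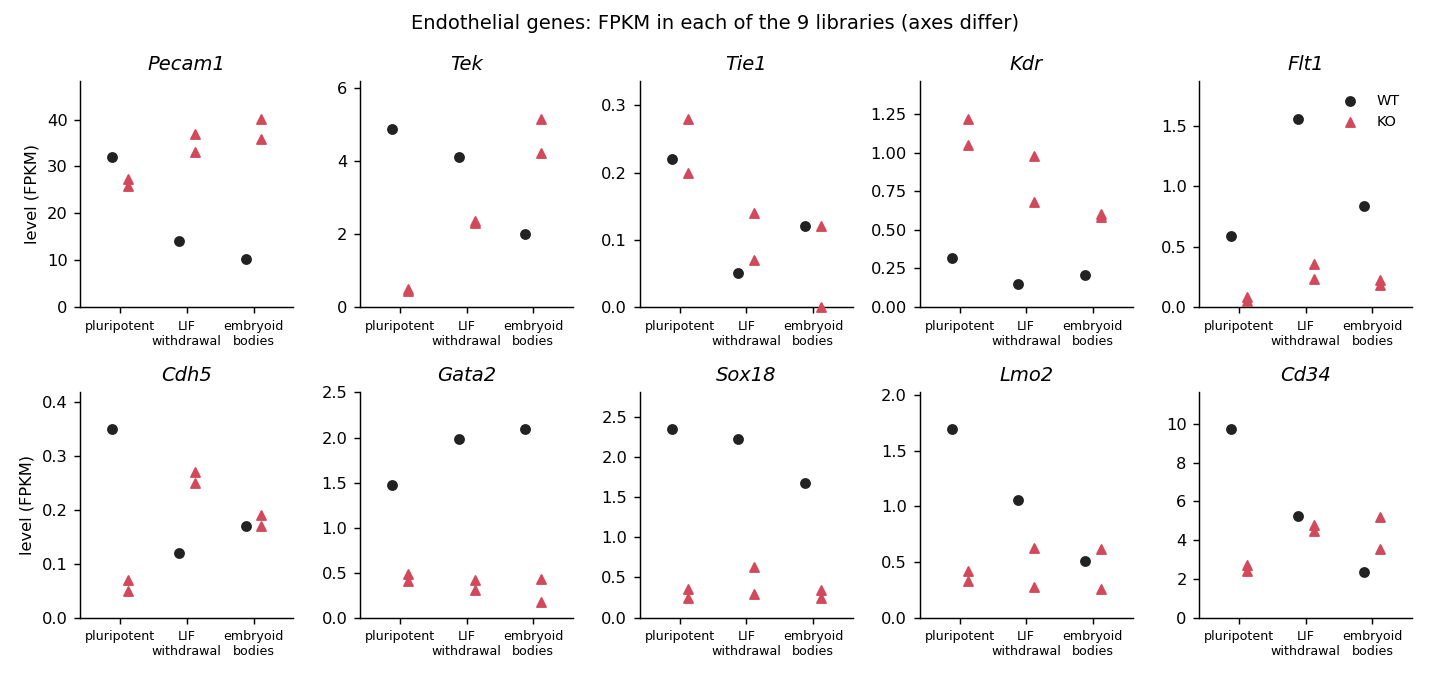
FPKM of the 10 genes in each of the 9 libraries, 1 panel a gene with its own linear axis from 0, by culture, with WT and KO libraries as different symbols and no averaging. Pecam1 reaches 40.2 FPKM in a KO embryoid body library while Tie1 and Cdh5 stay at or below 0.35 FPKM everywhere.

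Of the 10 members, 7 passed the filter for testing (a mean of at least 0.5 FPKM) and Tie1, Flt1 and Cdh5 did not. In pluripotent culture 5 of these 7 were called lower in KO (Tek, Cd34, Sox18, Lmo2 and Gata2), 1 was called higher (Kdr) and 1 was not called (Pecam1). In the same comparison 26.3% of all tested genes were called lower and 25.5% higher, 51.8% in all. After LIF withdrawal 3 were called lower (Tek, Gata2 and Sox18) and 2 higher (Pecam1 and Kdr), against 17.5% and 18.4% of all tested genes (35.8% in all). In embryoid bodies 2 were called lower (Gata2 and Sox18) and 4 higher (Pecam1, Tek, Cd34 and Kdr), against 17.8% and 19.4% (37.2% in all). The lists of calls thus changed between cultures for Pecam1, Tek, Cd34 and Lmo2, and the tests of those changes are given with each gene. The filter mean was taken over 6 KO and 3 WT libraries. Kdr stayed below 0.5 FPKM in every WT library, and Gata2, Sox18 and Lmo2 had KO means below 0.5 in every culture. These members passed through the genotype in which they were higher, so their calls and the counts out of 7 are not independent of the filter.

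Pecam1, the junctional adhesion molecule, was not called between the genotypes in pluripotent culture and was higher in KO in both other cultures. Its level in pluripotent culture was 32.1 FPKM in WT and 25.8 and 27.3 in KO (log2 fold change −0.20 ± 0.10 SE, adjusted p = 0.113). After LIF withdrawal it was 14.1 FPKM in WT and 33.0 and 36.9 in KO, 2.57-fold higher in KO (log2 1.36 ± 0.11, adjusted p = 1.65e-06). In embryoid bodies it was 10.2 FPKM in WT and 40.2 and 35.9 in KO, 3.74-fold higher (log2 1.90 ± 0.11, adjusted p = 2.72e-07). Within WT, Pecam1 fell from pluripotent culture by 1.15 ± 0.12 on the log2 scale after LIF withdrawal and by 1.66 ± 0.12 in embryoid bodies. Within KO it rose slightly, by 0.40 ± 0.08 and 0.44 ± 0.08, and every KO library of these 2 cultures lay above both KO libraries of pluripotent culture. The KO response exceeded the WT response by 1.56 ± 0.14 for LIF withdrawal (adjusted p = 2.01e-05) and by 2.10 ± 0.15 for embryoid bodies (adjusted p = 2.03e-06).

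Tek, the angiopoietin receptor, reversed its order between the genotypes across the cultures. In pluripotent culture it was 4.89 FPKM in WT and 0.44 and 0.50 in KO, 9.56-fold lower in KO (log2 −3.26 ± 0.21, adjusted p = 2.34e-07). After LIF withdrawal it was 4.10 FPKM in WT and 2.31 and 2.35 in KO (log2 −0.75 ± 0.17, adjusted p = 0.00496). DESeq2 did not make this call (adjusted p = 0.108). In embryoid bodies WT was lowest at 2.0 FPKM and the KO libraries stood at 5.16 and 4.23 (log2 1.25 ± 0.19, adjusted p = 0.00026). Tek rose 9.33-fold from KO pluripotent culture to KO embryoid bodies (log2 3.22 ± 0.19, adjusted p = 6.6e-08), while in WT it fell by 1.28 ± 0.21 (adjusted p = 0.000509). Within WT the change after LIF withdrawal was −0.23 ± 0.19 (adjusted p = 0.425), against a rise of 2.27 ± 0.21 in KO. The 2 responses differed by 2.50 ± 0.28 for LIF withdrawal (adjusted p = 7.17e-05) and by 4.51 ± 0.29 for embryoid bodies (adjusted p = 1.08e-06), the latter being the widest such difference among the 7 tested members.

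Cd34, a sialomucin of endothelial and blood progenitors, followed Tek in direction within each genotype. Its steps from pluripotent culture were smaller than those of Tek in KO and larger in WT. Cd34 was 9.72 FPKM in WT pluripotent culture and 2.73 and 2.39 in KO, 3.5-fold lower in KO (log2 −1.81 ± 0.21, adjusted p = 1.98e-05). After LIF withdrawal the 3 libraries lay close together, at 5.25 FPKM in WT and 4.48 and 4.81 in KO (log2 −0.10 ± 0.21, adjusted p = 0.762). In embryoid bodies Cd34 was 2.35 FPKM in WT and 5.19 and 3.56 in KO (log2 0.81 ± 0.25, adjusted p = 0.0225), a call that was lost with DESeq2 (adjusted p = 0.151) and without KO embryoid body replicate 1 (log2 0.53, adjusted p = 0.151). WT fell by 2.02 ± 0.26 from pluripotent culture to embryoid bodies (adjusted p = 9.16e-05). It also fell by 0.89 ± 0.23 after LIF withdrawal (adjusted p = 0.0171), which DESeq2 did not call (adjusted p = 0.211). KO rose by 0.82 ± 0.19 after LIF withdrawal (adjusted p = 0.00286) and by 0.60 ± 0.20 in embryoid bodies (adjusted p = 0.0193). The latter call was lost with DESeq2 (adjusted p = 0.128), without KO pluripotent replicate 2 (log2 0.50, adjusted p = 0.109) and without KO embryoid body replicate 1 (log2 0.32, adjusted p = 0.244). The responses differed by 1.71 ± 0.30 (adjusted p = 0.00119) and 2.62 ± 0.32 (adjusted p = 8.23e-05).

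**Figure D2:**
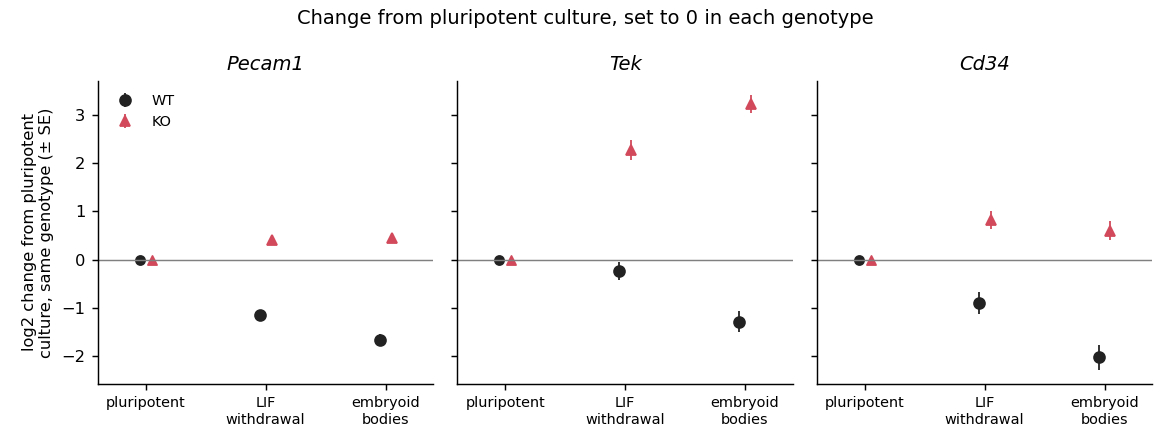
Change from pluripotent culture on the log2 scale (edgeR fit, bars ± SE) for Pecam1, Tek and Cd34, WT and KO as different symbols, with pluripotent culture of each genotype set to 0. Pecam1, Tek and Cd34 lie below 0 in WT and above 0 in KO in both cultures, although the WT change of Tek after LIF withdrawal (−0.23) was not called.

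Pecam1, Tek and Cd34 were thus the 3 tested members whose response to leaving pluripotent culture differed between genotypes. They were 3 of 7 for LIF withdrawal, where 32.4% of all tested genes were called (17.5% higher in KO), and 3 of 7 for embryoid bodies, where 41.9% were (22.4% higher in KO). From pluripotent culture to LIF withdrawal, 2 of 7 were called in WT, both lower (all tested genes, 20.5% called and 8.9% called lower), and 3 of 7 in KO, all higher (all tested genes, 59.2% called and 30.2% called higher). To embryoid bodies, 3 of 7 were called in WT, all lower (all tested genes, 38.6% called and 18.9% called lower), and 4 of 7 in KO, 3 of them higher (all tested genes, 61.0% called and 31.0% called higher). The fourth was Kdr, which fell by 1.05 ± 0.27 in KO (adjusted p = 0.00479), a call lost with DESeq2 (adjusted p = 0.0795) and with limma at a pseudocount of 0.1 (adjusted p = 0.0535). These comparisons share their pluripotent libraries, so their directions are not independent of one another. The WT library of pluripotent culture is in every difference of response and has no replicate.

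Genes of the pluripotent state mostly fell in WT as well, but moved in both directions in KO. Of 18 pluripotency genes, all tested, 12 were called lower and none higher in WT after LIF withdrawal, and 13 lower and 2 higher in WT embryoid bodies. Of all tested genes, 8.9% and 18.9% were called lower in these 2 comparisons. Within KO, 5 of the 18 were called higher and 9 lower after LIF withdrawal (all tested genes, 59.2% called and 30.2% called higher). KO embryoid bodies had 7 called higher and 8 lower (all tested genes, 61.0% called and 31.0% called higher). The median log2 changes within KO were −0.19 and −0.12. In embryoid bodies 13 of the 18 were called higher in KO than in WT and 2 lower (all tested genes, 19.4% and 17.8%), with a median log2 difference of 0.98 against 0.00 over all tested genes. After LIF withdrawal 10 were higher and 3 lower (all tested genes, 18.4% and 17.5%), with a median of 0.51. In pluripotent culture 5 were higher and 9 lower (all tested genes, 25.5% and 26.3%), with a median of −0.22. The difference of the embryoid body response was called higher in KO for 12 (all tested genes, 22.4%) and lower for none. Their summed level stayed high in all 9 libraries, between 4430 and 6150 FPKM, and Pou5f1 (Oct4) lay between 648 and 895 FPKM. A large part of this sum was Dppa5a, at 1570 to 2600 FPKM, so the sum does not stand for each gene. Tdgf1, for one, was 895 FPKM in WT pluripotent culture and 228 in WT embryoid bodies. The part of pluripotency genes in the pattern of Pecam1, Tek and Cd34 was not tested.

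Across the 9 libraries the genes whose levels followed Pecam1 most closely, among 12665 compared, were Coro2b, Sun1 and Rhox1, with Pearson correlations of log2(FPKM + 1) of 0.982, 0.981 and 0.976. For Tek they were Fam122b, Robo1 and Slc2a3 (0.972, 0.970 and 0.966), and for Cd34 they were Yme1l1, Srp54c and Rbsn (0.965, 0.964 and 0.963). Robo1, a guidance receptor, was 10.3 FPKM in WT pluripotent culture, 2.06 and 2.15 in KO, and 7.14 against 10.6 and 11.1 in embryoid bodies. None of these 9 genes is among the 10 members. Between members the same correlation was 0.74 for Tek with Cd34, 0.37 for Pecam1 with Cd34 and 0.17 for Pecam1 with Tek. These are descriptions over 9 libraries of 6 groups, in which libraries of a group share their culture. Each named gene was picked for its high correlation among the 12665. Genes without a symbol, and clone, Gm and Rik names, were passed over.

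Kdr and Flt1, the VEGF receptors, moved in opposite directions between the genotypes. Kdr, which carries most VEGF signalling in endothelial cells, was low everywhere and higher in both KO libraries than in WT in each culture. It was 0.32 FPKM in WT and 1.22 and 1.05 in KO in pluripotent culture (log2 1.93 ± 0.38, adjusted p = 0.00107). After LIF withdrawal it was 0.15 FPKM in WT and 0.98 and 0.68 in KO (log2 2.48 ± 0.45, adjusted p = 0.00105). In embryoid bodies it was 0.21 FPKM in WT and 0.58 and 0.60 in KO (log2 1.48 ± 0.45, adjusted p = 0.0209). The embryoid body call was lost with DESeq2 (adjusted p = 0.145), with limma and without KO embryoid body replicate 1 (adjusted p = 0.0566) or replicate 2 (adjusted p = 0.0662). The counts behind these values were small, 9 to 19 in a WT library and 33 to 70 in a KO library. Over the 3 cultures together, in a fit of culture and genotype, Kdr was 3.86-fold higher in KO (log2 1.95 ± 0.27, adjusted p = 0.00125). In that fit 1 of 7 members was called higher (Kdr) and 2 lower (Gata2 and Sox18), against 13.3% and 13.8% of all tested genes, 27.1% in all. Flt1, which was below the level filter, is not in this count.

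Flt1, which binds VEGF tightly and also acts as a decoy, did not reach the mean level for testing. It was 0.59 FPKM in WT and 0.08 and 0.05 in KO in pluripotent culture, 1.56 against 0.23 and 0.36 after LIF withdrawal, and 0.84 against 0.18 and 0.22 in embryoid bodies. Both KO libraries lay below WT in each culture. In counts these were 40 in WT against 8 in the 2 KO libraries together, then 105 against 41 and 55 against 27. Scaled by library size and number, the KO to WT ratio was 0.103 (95% exact binomial interval 0.0418 to 0.224), 0.192 (0.13 to 0.278) and 0.243 (0.147 to 0.392), intervals that cover counting error only. In the fit without the level filter, over 20184 genes, Flt1 was called lower in KO in all 3 cultures (log2 −3.09 ± 0.47, −2.28 ± 0.31 and −2.01 ± 0.36, adjusted p = 0.000155, 9.19e-05 and 0.000963). Of all genes in that fit, 37.1%, 25.5% and 26.0% were called in the same 3 comparisons. In WT, Flt1 rose after LIF withdrawal (log2 1.40 ± 0.35, adjusted p = 0.0158), and in KO it rose by 2.21 ± 0.47 (adjusted p = 0.00147), in the same fit, with no called difference between these rises (0.81 ± 0.60, adjusted p = 0.418). Of all genes in that fit, 13.6% were called in the WT comparison, 41.9% in the KO comparison and 21.1% for the difference. Over the 3 cultures together, in edgeR's fit of culture and genotype without the filter, Flt1 was also called lower in KO (log2 −2.39 ± 0.27, adjusted p = 0.000261).

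Gata2 and Sox18 were lower in KO in each culture. Gata2, a zinc finger factor of blood, vessel and trophoblast precursors, was 1.47 FPKM in WT and 0.41 and 0.48 in KO in pluripotent culture (log2 −1.59 ± 0.40, adjusted p = 0.0057, not called by DESeq2 at 0.0937). It was 1.98 FPKM in WT against 0.31 and 0.42 after LIF withdrawal (log2 −2.36 ± 0.39, adjusted p = 0.000552). In embryoid bodies it was 2.09 FPKM in WT against 0.18 and 0.43, 6.78-fold lower in KO (log2 −2.76 ± 0.40, adjusted p = 0.000217). WT and KO did not overlap in any culture. Within a genotype Gata2 was not called against pluripotent culture: its changes were 0.46 ± 0.39 and 0.53 ± 0.39 in WT and −0.31 ± 0.43 and −0.64 ± 0.45 in KO. Over the 3 cultures Gata2 was 4.75-fold lower in KO (log2 −2.25 ± 0.30, adjusted p = 0.00104).

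Sox18, an SRY-box factor of vessel and lymphatic development, was 2.34 FPKM in WT and 0.36 and 0.24 in KO in pluripotent culture (log2 −2.80 ± 0.51, adjusted p = 0.000673). After LIF withdrawal it was 2.22 FPKM in WT and 0.29 and 0.63 in KO (log2 −2.20 ± 0.48, adjusted p = 0.00342), and in embryoid bodies 1.68 FPKM in WT and 0.24 and 0.35 in KO (log2 −2.47 ± 0.55, adjusted p = 0.00369). DESeq2 did not call the last 2 of these (adjusted p = 0.113 and 0.0746). The KO values rest on 4 to 11 counts a library, against 28 to 40 in WT. Over the 3 cultures Sox18 was 5.58-fold lower in KO (log2 −2.48 ± 0.30, adjusted p = 0.000676). As with Gata2, no change of Sox18 from pluripotent culture within a genotype was called.

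Lmo2, the adaptor that joins Gata and basic helix-loop-helix factors, was called lower in KO in pluripotent culture. It was 1.69 FPKM in WT and 0.42 and 0.33 in KO there (log2 −1.98 ± 0.59, adjusted p = 0.0137), 1.06 against 0.28 and 0.63 after LIF withdrawal (−1.04 ± 0.61, adjusted p = 0.213), and 0.51 against 0.26 and 0.62 in embryoid bodies (−0.21 ± 0.74, adjusted p = 0.853). The call in pluripotent culture was lost with DESeq2 (adjusted p = 0.209) and without KO pluripotent replicate 2 (log2 −1.75, adjusted p = 0.0635). The difference of its response between genotypes was not called for LIF withdrawal (0.94 ± 0.86, adjusted p = 0.436) or for embryoid bodies (1.77 ± 0.95, adjusted p = 0.154), so the cultures are not shown to differ. Its KO counts were 4 to 11 a library.

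Cdh5 (VE-cadherin), the junctional cadherin of endothelial cells, was 0.35 FPKM in WT and 0.07 and 0.05 in KO in pluripotent culture, from 15, 3 and 2 counts. The KO to WT count ratio there was 0.172 (95% exact binomial interval 0.049 to 0.499). It was 0.12 FPKM in WT against 0.25 and 0.27 after LIF withdrawal, a ratio of 2.26 (0.84 to 7.61), and 0.17 FPKM against 0.17 and 0.19 in embryoid bodies, a ratio of 1.06 (0.407 to 3.08). The intervals of the latter 2 cultures include 1. Without the level filter, edgeR called Cdh5 lower in KO in pluripotent culture (log2 −2.33 ± 0.70, adjusted p = 0.0167), and called a difference in its response to LIF withdrawal (log2 3.58 ± 0.97, adjusted p = 0.0174; all genes in that fit, 21.1%). The difference for embryoid bodies was not called (2.44 ± 0.97, adjusted p = 0.0798; all genes, 27.9%). Tie1, the orphan relative of Tek, had at most 11 counts in a library and none in KO embryoid body replicate 1 (95% upper limit about 0.292 CPM). Its KO to WT ratios were 1.09 (0.471 to 2.74), 2.21 (0.457 to 21.0) and 0.495 (0.114 to 2.15) in the order of the cultures above, all including 1, and it was not called in any comparison of that fit. No difference in Tie1 was detectable at this depth. The counting is not stated to use strand, so reads of the opposite-strand genes that overlap Cdh5, Lmo2 and Cd34 in GENCODE M21 cannot be told apart from theirs. Of these 3 genes, the one at Cd34, Gm16897, was at most 0.57 FPKM.

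**Figure D3:**
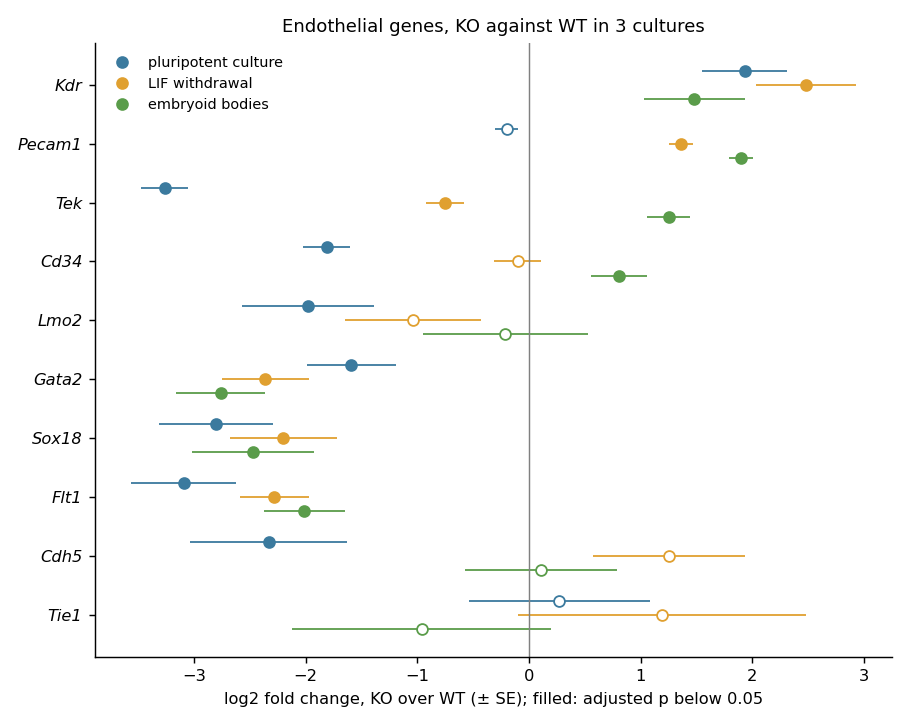
KO versus WT log2 fold change with SE bars for the 10 genes in each of the 3 cultures, from edgeR. Filled symbols had an adjusted p below 0.05, and Tie1, Flt1 and Cdh5 are from the fit without the level filter. Tek runs from −3.26 to 1.25 across cultures, Gata2 lies at −1.59 or lower and Kdr at 1.48 or higher in all 3.

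Over the 3 cultures together Pecam1, Tek and Cd34 were not called, with log2 differences of 0.93 ± 0.34 (adjusted p = 0.0716), −1.07 ± 0.66 (adjusted p = 0.264) and −0.49 ± 0.41 (adjusted p = 0.416). The value of Pecam1 was called without the WT pluripotent library (log2 1.62, adjusted p = 4.01e-06), without KO pluripotent replicate 1 (1.12, adjusted p = 0.0469) and with DESeq2 (0.94, adjusted p = 0.0106). Without the WT pluripotent library the differences of Tek and Cd34 took the opposite sign, 0.16 and 0.30. Tek was called lower without the WT embryoid body library (log2 −1.99, adjusted p = 0.0185). Lmo2 was −1.16 ± 0.43 (adjusted p = 0.0775) and was called without the WT embryoid body library (−1.52, adjusted p = 0.0452) or KO embryoid body replicate 2 (−1.42, adjusted p = 0.0395).

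Other genes of the endothelial programme were taken from a list of 54, of which 53 were listed in at least 1 library (Emcn was not) and 33 were tested. In pluripotent culture 9 of the 33 were called higher in KO and 12 lower, against 25.5% and 26.3% of all tested genes, with a median log2 difference of −0.14. After LIF withdrawal 10 were higher and 11 lower, against 18.4% and 17.5% (median −0.48), and in embryoid bodies 10 were higher and 6 lower, against 19.4% and 17.8% (median 0.02). The medians over all tested genes were −0.01, 0.00 and 0.00.

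Among the ligands, Vegfc, known for lymphatic vessel growth, was higher in KO in all 3 cultures, at 11.5 FPKM in WT and 20.2 and 19.6 in KO in pluripotent culture (log2 0.92 ± 0.15, adjusted p = 0.000295), and 1.44 FPKM in WT against 8.75 and 7.48 in embryoid bodies (log2 2.48 ± 0.23, adjusted p = 6.73e-06). Vegfb was higher in KO in pluripotent culture (29.0 FPKM in WT, 60.4 and 61.0 in KO, log2 1.18 ± 0.11, adjusted p = 4.57e-06). Vegfa, the main ligand of Kdr, was 18.3 FPKM in WT and 6.84 and 10.3 in KO in pluripotent culture (log2 −1.01 ± 0.31, adjusted p = 0.0162), which DESeq2 (adjusted p = 0.244), limma and the fit without KO pluripotent replicate 1 (log2 −0.79, adjusted p = 0.0932) did not call. It was not called in the other 2 cultures (−0.67 ± 0.34 and 0.02 ± 0.38). Pgf, which binds Flt1, was 2.18 FPKM in WT and 0.37 in both KO libraries after LIF withdrawal (log2 −2.61 ± 0.50, adjusted p = 0.00138, not called by DESeq2 at 0.075). It was also lower in pluripotent culture (−2.33 ± 0.81, adjusted p = 0.0288), a call lost with DESeq2 and without either KO pluripotent library. Vegfd was lower in pluripotent culture (log2 −1.82 ± 0.53, adjusted p = 0.012), a call lost with DESeq2 and without KO pluripotent replicate 2 (−1.29, adjusted p = 0.0744). The Tek ligands Angpt1 and Angpt2 were too low to test, with at most 0.02 and 0.43 FPKM. Apln, the peptide ligand of a receptor of migrating vessel cells, was 5.49 FPKM in WT embryoid bodies and 0.34 and 0.33 in KO, 16.4-fold lower in KO (log2 −4.03 ± 0.29, adjusted p = 1.02e-06). It was also lower in KO in pluripotent culture (−2.78 ± 0.51) and after LIF withdrawal (−2.81 ± 0.28).

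Among receptors and surface proteins, Robo4, a guidance receptor of endothelial cells, was higher in KO in all 3 cultures. It was 4.12 FPKM in WT and 14.2 and 16.1 in KO in pluripotent culture, 2.91 against 29.0 and 27.8 after LIF withdrawal (log2 3.34 ± 0.13, adjusted p = 1.03e-08), and 3.26 against 26.2 and 27.2 in embryoid bodies. Nrp2, a co-receptor for VEGF ligands, was higher in KO in pluripotent culture (2.17 FPKM in WT, 8.72 and 9.31 in KO, log2 2.18 ± 0.17) and lower after LIF withdrawal (5.39 against 0.53 and 0.75, log2 −2.89 ± 0.18, adjusted p = 3.2e-07). In embryoid bodies it was −0.53 ± 0.18 (adjusted p = 0.0376), which 8 of the alternative settings, DESeq2 and limma among them, did not call. Ramp2, a partner of the adrenomedullin receptor, was 4.21 FPKM in WT and 38.1 and 32.0 in KO in pluripotent culture (log2 3.18 ± 0.34, adjusted p = 1.06e-05). It was not called after LIF withdrawal (0.46 ± 0.40) or in embryoid bodies (−0.85 ± 0.33). Mcam (CD146), an adhesion molecule, was called lower in KO in pluripotent culture and higher in embryoid bodies, as Tek and Cd34 were, with 20.4 FPKM in WT and 7.13 and 8.35 in KO in pluripotent culture (log2 −1.28 ± 0.13, adjusted p = 9.02e-06) and 11.6 against 18.0 and 15.0 in embryoid bodies (0.50 ± 0.14, adjusted p = 0.013, not called by DESeq2 at 0.107 or without KO embryoid body replicate 1 at 0.094). The secreted vessel protein Egfl7 was 21.4 FPKM in WT and 43.1 and 45.7 in KO in pluripotent culture (log2 1.18 ± 0.12, adjusted p = 7.77e-06), and 0.40 ± 0.12 after LIF withdrawal (not called by DESeq2, adjusted p = 0.212) and 0.59 ± 0.12 in embryoid bodies.

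The Notch ligands Jag1 and Jag2 were lower in KO in all 3 cultures. Jag1 was 2.53 FPKM in WT and 0.16 and 0.32 in KO in pluripotent culture, 9.74-fold lower (log2 −3.28 ± 0.30, adjusted p = 3.16e-06), then −1.53 ± 0.24 and −1.85 ± 0.25. Jag2 was −1.76 ± 0.14, −1.50 ± 0.12 and −0.79 ± 0.13 (adjusted p = 1.25e-06, 2.02e-06 and 0.00048). Notch4, the endothelial Notch receptor, was called higher in KO outside pluripotent culture, as Pecam1 was: it was 11.9 FPKM in WT and 9.75 and 13.3 in KO in pluripotent culture (0.08 ± 0.15, adjusted p = 0.69), 6.84 against 12.8 and 14.8 after LIF withdrawal (1.07 ± 0.16, adjusted p = 0.000242) and 2.01 against 7.96 and 6.87 in embryoid bodies (1.88 ± 0.20, adjusted p = 1.79e-05). Among ETS factors, Elk3 was higher in KO in all 3 cultures, at 1.10 FPKM in WT and 6.14 and 5.77 in KO in pluripotent culture (log2 2.55 ± 0.20, adjusted p = 1.21e-06). Etv2, the factor that starts the endothelial programme in mesoderm, was highest in the WT embryoid body library at 4.68 FPKM, against 0.85 and 1.19 in KO (log2 −2.19 ± 0.52, adjusted p = 0.0058). The call did not hold with DESeq2 (adjusted p = 0.128) and with limma at a pseudocount of 0.1 (adjusted p = 0.079).

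**Figure D4:**
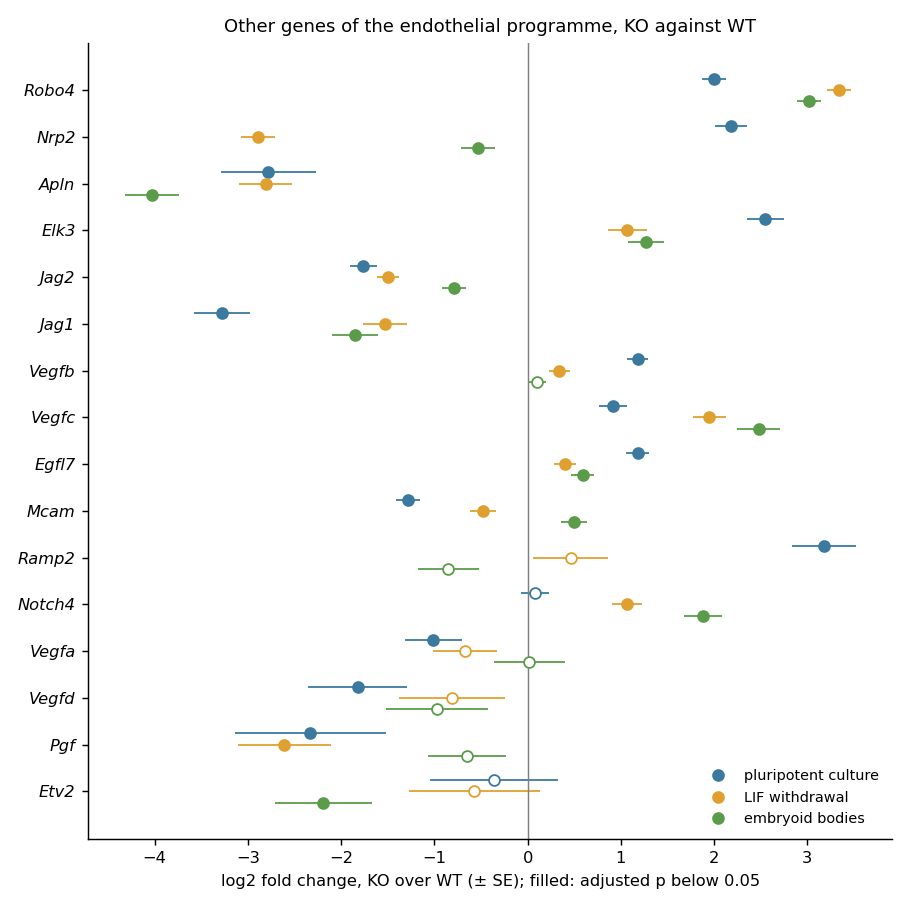
KO versus WT log2 fold change with SE bars (edgeR) for the named other genes of the endothelial programme in the 3 cultures. Filled symbols had an adjusted p below 0.05. Robo4, Vegfc and Elk3 lie above 0 and Apln, Jag1 and Jag2 below 0 in all 3 cultures, while Nrp2 crosses from 2.18 to −2.89.

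Genes of other lineages were also counted. The counts that follow stand against 26.3% of all tested genes called lower and 25.5% called higher in KO in pluripotent culture, 17.5% and 18.4% after LIF withdrawal, and 17.8% and 19.4% in embryoid bodies. Of 12 tested trophoblast genes, to which lineage Gata2 also belongs, 9 were called lower and none higher in KO after LIF withdrawal, and 7 lower and 2 higher in embryoid bodies. Their summed level was 145 FPKM in WT against 33.7 and 35.4 in KO after LIF withdrawal, 131 against 54.6 and 53.3 in embryoid bodies, and 87.1 against 76.1 and 72.3 in pluripotent culture, where 6 were lower and 3 higher. Among 11 tested early mesoderm genes, 6 were called lower and 1 higher in KO after LIF withdrawal, and 5 lower and 1 higher in embryoid bodies. T (brachyury) was 17.5 FPKM in WT and 0.18 in both KO libraries after LIF withdrawal, and 24.0 against 0.05 and 0.18 in embryoid bodies. Bmp4 went the other way, at 7.78 FPKM in WT against 56.6 and 46.5 in KO after LIF withdrawal. Its levels in embryoid bodies were 11.2 against 64.3 and 50.3. The mesoderm sums in these 2 cultures were 77.3 FPKM in WT against 78.5 and 72.6 in KO, and 101 against 93.5 and 79.9. In pluripotent culture 3 mesoderm genes were higher and 3 lower (median −0.24). The mesoderm sum was 43.4 FPKM in WT against 256 and 242 in KO in that culture, where Bmp4 alone was 25.3 against 223 and 210. Of 7 tested blood genes, 2 were called higher and 2 lower in KO in pluripotent culture, 1 and 2 after LIF withdrawal, and 2 and 0 in embryoid bodies. The list summed to between 15.9 and 48.7 FPKM.

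The 6 tested mural and smooth muscle genes had 4 lower and none higher in KO both in pluripotent culture and after LIF withdrawal, where Tagln was 47.9 FPKM in WT and 1.41 and 1.40 in KO. In embryoid bodies 2 were higher and 3 lower, and the list summed to between 14.5 and 105 FPKM. Of 10 tested extraembryonic endoderm genes 6 were higher and 2 lower in KO in pluripotent culture, 3 and 2 after LIF withdrawal, and 4 and 3 in embryoid bodies, with sums of 73.5 to 281 FPKM over the 9 libraries. The 5 tested fibroblast and feeder genes had 2 higher and 3 lower in pluripotent culture, 1 and 3 after LIF withdrawal, and 1 and 1 in embryoid bodies, with sums of 105 to 438 FPKM. Vim ranged from 32.1 FPKM in the WT embryoid body library to 408 in a KO pluripotent library. The latter is the library with the sum of 438 FPKM, so Vim made up most of that sum. Of 8 tested neural genes 6 were lower and 1 higher in KO in pluripotent culture and again after LIF withdrawal, and 5 lower and 2 higher in embryoid bodies, with sums of 45.0 to 141 FPKM. Sox1 went against the majority, at 0.37 FPKM in WT against 8.99 and 8.82 in KO after LIF withdrawal. Its levels in embryoid bodies were 0.19 against 3.53 and 2.08. The part of any of these lineages in the values of the 10 endothelial genes was not tested.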

How the data were processed

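Libraries were made from total RNA (RNeasy Mini Kit) by Illumina protocols, per the labels' protocols. The submitters' processing notes name Bowtie2 and build mm8. For the quantifier, annotation and strand setting, what was used is not given in the sources used here. The deposited tables, 1 a library, give each gene an estimated count, named expected count per the file headers, made by the authors and not always whole. They also hold an FPKM value per gene, computed by the authors.

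Expected counts were rounded, and a gene not listed in a library was set to 0. Of 20287 gene IDs, 20234 were matched by ID and 9 by accession to RefSeq symbols, and 44 were not matched. Coordinates and sequences are given only for RefSeq promoters on GRCm38.p6, a different build from that of the reads. The 13990 genes with a mean of at least 0.5 FPKM were tested with edgeR 4.0.16 (quasi-likelihood test, TMM factors 0.94 to 1.04, R 4.3.3). All 9 libraries entered 1 fit with 6 group means, in which the 3 KO pairs supply all 3 residual degrees of freedom (biological coefficient of variation 6.52%). A second fit had culture and genotype as terms (5 residual degrees of freedom, 18.1%). P-values were Benjamini-Hochberg adjusted within each comparison. Standard errors were computed as |log2 fold change| divided by √F, and can lie below the counting error at few counts. Intervals of count ratios are 95% exact binomial. Differences within the KO pairs exceeded counting noise (chi-square per degree of freedom 2.88 to 4.37), so none was taken for 1 library. The fit was tested on simulated counts.

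Alternatives were DESeq2 1.42.0, size factors by DESeq2's method in edgeR, limma 3.58.1 on log2(FPKM + 1) and log2(FPKM + 0.1), no level filter, a mean of at least 1 FPKM, the replicate number as a block, and leaving out each library. Named other endothelial genes had a mean of at least 1 FPKM and a call in at least 1 of the 3 KO to WT comparisons (the 12 smallest adjusted p of 23), with the VEGF and angiopoietin ligands and Etv2 added by name. From each other list up to 4 genes of highest mean FPKM could be named, and the 3 genes most like a member were taken for members with a mean of at least 1 FPKM. The members and lists were chosen with earlier results of these data known.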

Additional observations from a re-analysis of the deposited data

Results flagged for a closer look

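The results in this part are those whose change from pluripotent culture differed between KO and WT by edgeR's test of that difference (adjusted p below 0.05). Values are the KO response minus the WT response on the log2 scale. All of them rest on the single WT pluripotent library, and all share it and the KO pluripotent pair.

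For LIF withdrawal the members were Pecam1 at 1.56, Tek at 2.50 and Cd34 at 1.71. For embryoid bodies they were Pecam1 at 2.10, Tek at 4.51 and Cd34 at 2.62. Each of the 6 values is positive, and Pecam1, Tek and Cd34 were called in both responses with DESeq2, with limma and in the 7 fits per response that left out 1 library and could give a value. A fit without the WT library of either culture compared gives no difference of response, so the dependence on those WT libraries could not be checked.

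Among other endothelial genes, the response to LIF withdrawal was higher in KO for Robo4 (1.34), Jag1 (1.76), Vegfc (1.03), Mcam (0.80) and Notch4 (0.99). It was lower in KO for Nrp2 (−5.07), Elk3 (−1.48), Vegfb (−0.83), Egfl7 (−0.78) and Ramp2 (−2.72). The embryoid body response was higher in KO for Robo4 (1.03), Jag2 (0.97), Jag1 (1.43), Vegfc (1.57), Mcam (1.78) and Notch4 (1.80). It was lower in KO for Nrp2 (−2.71), Elk3 (−1.28), Vegfb (−1.08), Egfl7 (−0.59) and Ramp2 (−4.03). The value of Nrp2 after LIF withdrawal is the widest among these genes: WT rose from 2.17 to 5.39 FPKM while KO went from 8.72 and 9.31 to 0.53 and 0.75.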

How the results depend on the processing

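Counts of called members changed by more than 1.5 times as follows. With a mean of at least 1 FPKM required, only Pecam1, Tek and Cd34 are tested: the calls between KO and WT fell from 6 to 2 in pluripotent culture, from 5 to 2 after LIF withdrawal, from 6 to 3 in embryoid bodies and from 3 to 0 over the 3 cultures, by construction of that filter. With DESeq2 they went from 5 to 3 after LIF withdrawal, from 6 to 3 in embryoid bodies, from 2 to 1 in WT after LIF withdrawal, and from 4 to 2 in KO embryoid bodies against KO pluripotent culture. Both limma fits gave 1 in place of 2 in WT after LIF withdrawal. Without the filter 5 members in place of 3 were called in KO after LIF withdrawal, since Flt1 and Cdh5 entered the test. Leaving out 1 library gave 3 to 5 calls over the 3 cultures, with 5 without the WT embryoid body library. Apart from construction, the cause was not tested.

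Signs changed only for values that were not called in the main analysis. Leaving out 1 library gave ranges, over the 3 cultures, of −1.99 to 0.16 for Tek and −1.01 to 0.30 for Cd34. For Sox18 they were −0.08 to 0.97 (KO, LIF withdrawal), −0.42 to 0.19 (KO embryoid bodies) and −0.03 to 1.03 (difference of the LIF response). For Lmo2 they were −0.97 to 0.28 (KO versus WT embryoid bodies), −0.34 to 0.72 and −0.68 to 0.57 (KO, LIF withdrawal and embryoid bodies). KO versus WT ranged from −0.11 to 0.87 for Ramp2 and from −2.01 to 0.12 for Etv2 after LIF withdrawal, from −0.14 to 0.27 for Notch4 in pluripotent culture, and from −0.21 to 0.22 for Vegfa in embryoid bodies. With limma at pseudocounts of 1 and 0.1, Notch4 was −0.05 and −0.06 and Vegfa −0.03 and −0.04. The difference of the LIF response of Kdr was −0.03 at a pseudocount of 1. The cause was not tested.

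With the replicate number as a block, the KO to WT calls were 6, 5 and 6 in the 3 cultures, as without it. The block called the fall of Lmo2 in WT embryoid bodies (−1.68, adjusted p = 0.0493), Ramp2 lower in KO embryoid bodies (−0.87, adjusted p = 0.00891) and Vegfa lower in KO after LIF withdrawal (−0.74, adjusted p = 0.00458). Under it Vegfa was −0.01 in embryoid bodies. The labels do not say that a number marks a shared culture, and KO differences between same-numbered libraries correlated at 0.183, 0.022 and 0.071 between cultures, so the numbers were not taken as pairs. At under 20 counts a library, as for Tie1, Cdh5 and the KO values of Sox18 and Lmo2, depth limits what can be seen.

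Leaving out 1 library also changed these calls not given with the genes. The response of Kdr in KO to LIF withdrawal was called without KO LIF withdrawal replicate 1 (−0.80, adjusted p = 0.038), and the difference of the embryoid body response of Gata2 without KO embryoid body replicate 2 (−1.94, adjusted p = 0.0478). Ramp2 in embryoid bodies was called without either KO LIF withdrawal library (adjusted p = 0.0265 and 0.0269), and Vegfa after LIF withdrawal without KO replicate 2 (−1.43, adjusted p = 0.00211). After LIF withdrawal, Vegfb (0.26, adjusted p = 0.118) and Egfl7 (0.39, adjusted p = 0.0631) were not called without KO replicate 1, nor Mcam (−0.44, adjusted p = 0.0595) without KO replicate 2. DESeq2 did not call Vegfb (adjusted p = 0.178) or Mcam (adjusted p = 0.121) in that culture. With limma at a pseudocount of 0.1, Vegfd in pluripotent culture (adjusted p = 0.0565) and Mcam in embryoid bodies (adjusted p = 0.0502) were not called.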
